A study of Homo sapiens with 24 samples.

Results

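Wild-type METTL14 was set against EGFP by the positions of m6A summits in messenger RNA, using the 6 immunoprecipitated libraries of these lines out of the 24 samples of the series. N6-methyladenosine (m6A) is a methyl mark on adenosine, and m6A-seq precipitates RNA fragments with an antibody to the mark, sequences them and calls peaks, whose highest points are the summits. The lines were made from HepG2, grown from a human liver tumour, by lentiviral transduction and puromycin selection. The WT line expressed METTL14 in its wild-type form from the integrated cassette (3 biological replicates), and the EGFP line expressed EGFP in its place (3 biological replicates). The labels name no deletion, so the cells' own METTL14 is taken to be present in both lines, and each construct is given as 1 line, so line and construct cannot be told apart. Further lines expressed METTL14 with the substitution R298P or D312A, and input libraries were sequenced beside all immunoprecipitated ones. Summits of the 6 lists that lay within 100 nt of each other were merged into regions, and a library held a region if 1 or more of its summits lay in it. Regions held by 3 of 3 WT and 0 of 3 EGFP libraries were called gained, and regions held by 0 of 3 WT and 3 of 3 EGFP libraries lost. Of 28482 regions, 116 were gained (0.407% of all regions) and 72 were lost (0.253% of all regions).

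METTL14 forms the core of the m6A writer complex with METTL3. METTL3 carries the catalytic site, while METTL14 holds the complex together and helps it bind its RNA substrate. The complex writes m6A mainly at adenosines within a short consensus that often reads GGAC, and the mark is known to be frequent around stop codons and in long internal exons, where reader proteins bind it and alter the decay, translation or splicing of the transcript.

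The sequences at hand cover gene starts, so the called regions that overlap the first 50 bases of a RefSeq gene, counted from the start in the sequence table, are shown to let the called sites be read. There were 6 gained regions (5.17% of the gained) and 2 lost regions (2.78% of the lost) of this kind, against 2.16% of all regions, 1.95% of regions in exactly 3 of the 6 libraries and 0.590% of regions in all 6. Each line gives the genomic sequence of bases 21 to 50 of the gene in the sense direction, 5′ to 3′, from RefSeq on GRCh38.p14. Only the first GGAC of a window is in capitals. The HRC window holds another GGAC near its end, left in lower case. The window does not hold every summit of these regions: the summits reached base 65 in CCDC167, 58 in LOC107986011 and 55 in BCAS2, and began at base 16 in HRC. The gained ones lay in KIF4A (chrX:70290124-70290153, plus strand), HRC (chr19:49155347-49155376, minus strand), LOC107986011 (chr3:24522345-24522374, minus strand), BCAS2 (chr1:114581566-114581595, minus strand), SERPINA10 (chr14:94293007-94293036, minus strand) and CCDC167 (chr6:37499844-37499873, minus strand). The lost ones lay in WDR48 (chr3:39052036-39052065, plus strand) and B3GNT3 (chr19:17795158-17795187, plus strand).
KIF4A, gained: gagaacggggaagGGACatttagtttggtg
HRC, gained: agaggaaggtGGACagagaccgaaaggaca
LOC107986011, gained: gcctcccaccGGACacctaacctcagtccc
BCAS2, gained: cagaatggcgggcacaggtttggtggctgg
SERPINA10, gained: acagattgggagctggagtggggtaagagg
CCDC167, gained: ggcaagtaacatgactaaaaagaagcggga
WDR48, lost: atcaccggcagaacacagcagggcggagga
B3GNT3, lost: gagctgagaggagcaggtagaggggcagag
GGAC was read on the sense strand alone. It stood in 3 of these 8 windows, those of KIF4A, HRC and LOC107986011, and in 12.1% of the same windows of 35116 RefSeq genes. Those genes include ones with no summit at the start, so the sets are unlike, and the difference was not tested. Summits at gene starts made up 0.987%, 1.30% and 1.22% of the WT lists and 0.846%, 1.41% and 0.963% of the EGFP lists, so the lines overlapped in this share. Sequence of METTL14 and of the other called regions was not used here.

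The lines differed in the number of summits by less than their replicates did. The WT lists held 14797, 12620 and 15114 summits, and the EGFP lists 15373, 13859 and 12665. The means were 14177 ± 1358 for WT and 13966 ± 1357 for EGFP (SD, n = 3 each), a difference of 211 summits that was smaller than the spread within either line (p = 1.0, exact permutation test, two-sided). The 20 assignments of 3 and 3 libraries allow no p below 0.1. Of all summits, 85.2% ± 1.18 in WT and 85.3% ± 1.05 in EGFP lay in the span of a single protein-coding gene (SD, n = 3 each). Of 10 hepatocyte markers all had a summit in some library, with summed numbers of 31 to 96 in WT and 10 to 80 in EGFP libraries. The sum of 10, in EGFP replicate 2, came from HNF4A with 9 summits and TF with 1. TTR had 1 summit, in WT replicate 1 alone. Of 11 markers of other cell types, PDGFRB and CD68 had any, with summed numbers of 1 to 2 in WT and 0 to 1 in EGFP libraries.

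METTL14 was the gene that differed most between the lines. Its span (hg38, chr4:118685392-118715430, plus strand, 30039 nt) held 11, 9 and 7 summits in the WT libraries and 1, 1 and 1 in the EGFP libraries. The lowest WT library had 6 summits more than any EGFP library. The difference of means was 8.0 summits, with 9.0 ± 2.0 in WT and 1.0 ± 0 in EGFP (SD, n = 3 each; p = 0.1 by the same exact test, which can go no lower). No other gene of the 4946 tested differed by more than 3.33 summits upward or 4.33 downward. RNA of the introduced METTL14 and of the cells' own gene fall on the same span in these lists and cannot be told apart, and the amount of METTL14 RNA was not tested.

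**Figure D1:**
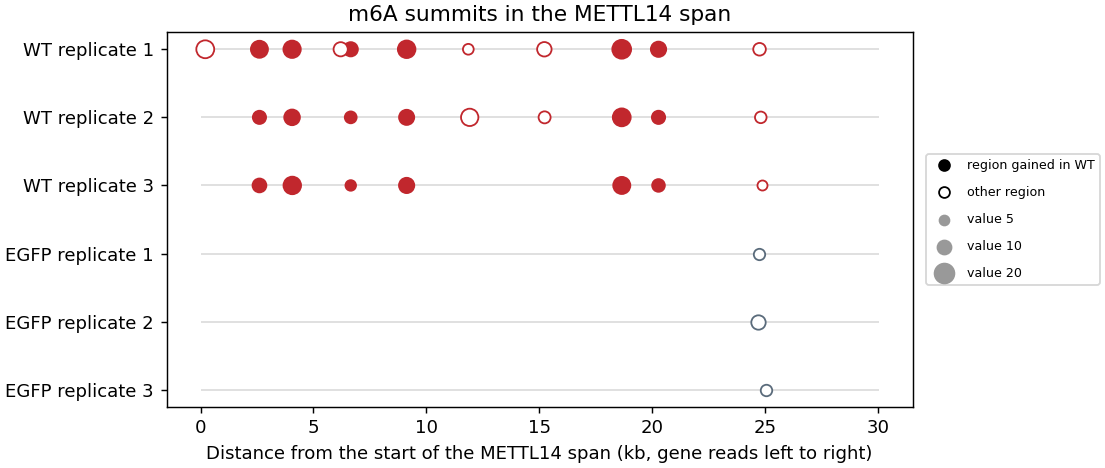
Summits in the METTL14 span, 1 row per library, WT above EGFP, by distance from the start of the span in kb. Circle area follows the summit value in the authors' lists and filled circles lie in regions gained in WT; the 3 WT rows carry 11, 9 and 7 circles and the 3 EGFP rows 1 each, near the right end.

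The METTL14 summits fell into 12 regions, 6 of which were gained and 0 lost. The gained ones lay at 118687998-118687999, 118689444-118689453, 118692042-118692043, 118694519-118694520, 118704047-118704050 and 118705677-118705678. The summits of the WT libraries fell almost on the same base: the median width of these regions was 2 nt, against 23 nt for gained regions elsewhere and 18 nt for all regions in exactly 3 of the 6 libraries. The best ranked, at 118704047-118704050, had summit values of 18.1, 16.4 and 14.9 in the WT lists, while the weakest, at 118692042-118692043, had 10.4, 7.19 and 5.72. In all, 10 of the 12 regions were held by no EGFP library. None of the gained regions had an EGFP summit within 500 nt.

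The single EGFP summits lay toward the 3′ end of the span, at 118710120, 118710087 and 118710424, with values of 6.62, 10.6 and 6.74. WT libraries each had a summit in the same part, at 118710153, 118710208 and 118710259, with values of 8.14, 6.85 and 5.16. These merged with 2 of the EGFP summits, while the EGFP summit at 118710424 formed a region of its own, held by 0 WT libraries. This 3′ part of the gene was where both lines had called summits. A missing summit does not show that the mark was absent. R298P libraries held 10, 6 and 9 summits in METTL14 and D312A libraries 9, 9 and 3, so every library with a METTL14 construct exceeded every EGFP library. The 6 regions gained in WT were found in 6, 4 and 6 of 6 cases in the R298P libraries and in 6, 6 and 3 of 6 in the D312A libraries.

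Lists of equal length, 12620 best summits each, left 4 of the 6 METTL14 regions called, and lists of the 5000 best summits left 0. The best ranked of them stood at the 36.0th percentile of the WT lists on average. With summits merged within 200 nt all 6 were still called. METTL14 had 6.67 more summits in WT than in EGFP with lists of equal length and 5.0 more among summits with a value of at least 10 (exact permutation test, p = 0.1 in each case).

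Outside METTL14 the regions gained and lost were few. The 6 lists merged into 28482 regions, of which 5758 were held by all 6 libraries and 10755 by 1. Of the 116 gained regions 110 lay outside METTL14, as did all 72 lost regions. Read against the 2866 regions held by exactly 3 of the 6 libraries, the gained were 4.05% and the lost 2.51%. A set of 3 of the 6 libraries can be chosen in 20 ways, of which gained and lost are 1 each. Both shares were below 1 in 20. Just outside the rule, 465 regions were held by 3 WT and 1 EGFP libraries and 667 by 2 WT and 0 EGFP libraries, while 332 were held by 1 WT and 3 EGFP libraries and 677 by 0 WT and 2 EGFP libraries.

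By median, called regions ranked within their lists near the regions held by exactly 3 of the 6 libraries. The median rank of gained regions outside METTL14 was at the 65.7th percentile of the list, where 0 is the best, and that of lost regions at 68.5. All regions had a median of 62.4, regions in 1 library 78.0, regions in exactly 3 of the 6 libraries 63.7 and those in all 6 libraries 30.6. In the best 25% of the lists stood 2 of the 110 gained regions outside METTL14 (1.82%) and 2 of the 72 lost regions (2.78%), against 4.19% of regions in exactly 3 of the 6 libraries and 11.1% of all regions. Many had a summit of the other line close by: 25 of the 110 gained and 24 of the 72 lost within 200 nt, and 48 and 37 within 500 nt. With lists of equal length 73 of the 110 and 44 of the 72 were still called, and 52 and 27 were called both with lists of equal length and, separately, with merging within 200 nt.

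**Figure D2:**
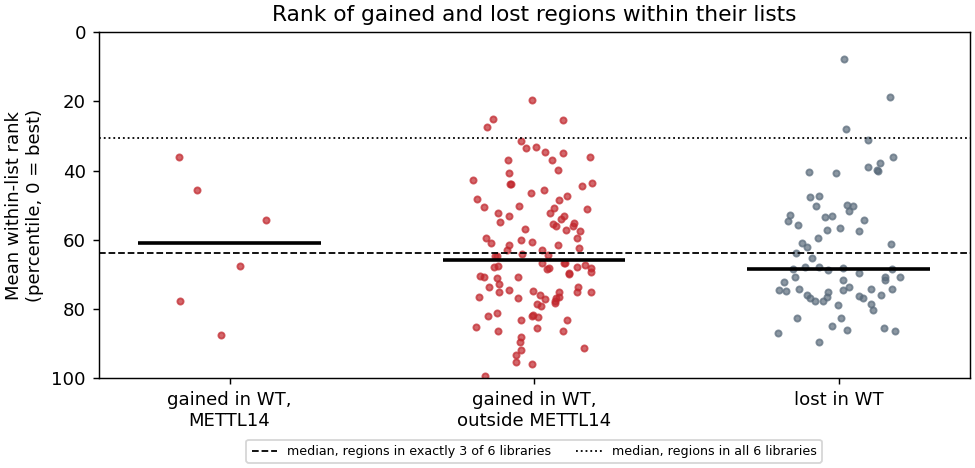
Mean rank of each gained or lost region within the lists that held it, as a percentile with the best at the top, for 6 gained regions in METTL14, 110 gained outside it and 72 lost regions. Bars mark medians of 60.9, 65.7 and 68.5; the dashed line is the median of regions in exactly 3 of the 6 libraries (63.7) and the dotted line that of regions in all 6 (30.6).

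The count of gained regions was above that of lost regions, but the balance depended on single libraries. Without EGFP replicate 2 there were 234 gained and 256 lost, and without EGFP replicate 3 there were 236 gained and 378 lost. The 5000 best summits of each list gave 41 gained and 42 lost. Lists of equal length kept the excess, with 104 gained and 60 lost. The difference between gained and lost counts was not tested.

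Gained regions lay in 102 genes, 1.09% of the 9323 genes with a summit, and lost regions in 64 genes, 0.686% of them. Among the best ranked gained regions with no EGFP summit within 200 nt were those in DENND4C, an exchange factor for Rab GTPases (chr9:19372286-19372289), with values of 16.5, 18.5 and 24.2 in the WT lists, and in WDPCP, a planar cell polarity and cilium protein (chr2:63404328-63404338), with 20.3, 17.7 and 19.5. DENND4C had 1, 1 and 2 summits in WT and 1, 0 and 0 in EGFP libraries, so the lines touched at 1 summit although the region itself was absent from EGFP. The region in PIK3CA, which encodes a catalytic subunit of phosphoinositide 3-kinase (chr3:179198942-179198964), had values of 16.0, 17.0 and 16.0. TRIM2, a ubiquitin ligase, held 1, 3 and 1 summits in WT and 0 in each EGFP library. Its gained region (chr4:153295827-153295832) was found in 0 R298P and 0 D312A libraries, and is 1 of 26 such among the 110 gained outside METTL14.

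The other gained regions of this rank lay in GPBP1, a promoter-binding factor (chr5:57175781-57175783), RANBP6, a relative of the importins (chr9:6012906-6012939), UBQLN2, which shuttles ubiquitinated proteins to the proteasome (chrX:56564701-56564703), KIF4A, a mitotic kinesin (chrX:70290127-70290130), TMEM200B (chr1:29120848-29120876) and ANAPC1, a subunit of the anaphase-promoting complex (chr2:111767857-111767860). The KIF4A region is the one at the gene start whose sequence is shown above. These regions differed in whether the gene had other sites: RANBP6 held 5, 6 and 5 summits in WT and 5, 3 and 6 in EGFP libraries, while TMEM200B held 1, 1 and 1 in WT and 0 in each EGFP library. All 10 of these gained regions were still called with lists of equal length and with merging within 200 nt.

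Among lost regions the best ranked with no WT summit within 200 nt lay in TUT7, a terminal uridylyltransferase that marks RNAs for decay (chr9:86353129-86353148), with values of 18.8, 14.8 and 22.3 in the EGFP lists. TUT7 held 3, 3 and 4 summits in WT and 5, 3 and 4 in EGFP libraries, so the gene as a whole overlapped between the lines. RTN3, a reticulon of the endoplasmic reticulum (chr11:63758386-63758395), and TMEM151A (chr11:66295034-66295036) held 0 summits in each WT library and 1 in each EGFP library. CCNY, which encodes cyclin Y (chr10:35569416-35569420), held 0 in each WT library and 2, 1 and 1 in EGFP libraries. In these 3 genes the lost region held all or most of the summits.

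The remaining lost regions of this rank lay in KDM6A, a demethylase of histone H3 (chrX:44873252-44873253), UBE2O, a ubiquitin-conjugating enzyme (chr17:76390925-76390941), UMPS, an enzyme of pyrimidine synthesis (chr3:124744072-124744083), EGLN1, the prolyl hydroxylase that marks hypoxia-inducible factor for decay (chr1:231421027-231421043), WDR48, a cofactor of deubiquitinases (chr3:39052050-39052065), and ZNF148, a zinc finger transcription factor (chr3:125233060-125233070). KDM6A held 3, 2 and 3 summits in WT and 5, 4 and 3 in EGFP libraries, and EGLN1 1, 0 and 1 in WT and 1, 2 and 2 in EGFP libraries. In both genes the lines met at a shared number. The UMPS region was not called with lists of equal length.

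A few genes held more than 1 called region. PCNX3, a pecanex membrane protein, was the only gene besides METTL14 with 2 or more gained regions, at chr11:65616123-65616150 and chr11:65616308-65616313. It had 6, 4 and 4 summits in WT and 6, 3 and 2 in EGFP libraries, which overlap. An EGFP summit lay within 200 nt of the PCNX3 region at 65616123-65616150 and within 500 nt of the one at 65616308-65616313. MED16, a Mediator subunit, was the only gene with a gained region (chr19:868101-868111) and a lost one (chr19:867984-867992), 109 nt apart. The MED16 values were 20.1, 13.7 and 9.54 for the gained region in the WT lists and 20.5, 22.4 and 20.99 for the lost region in the EGFP lists. Merging within 200 nt joins the neighbouring positions in MED16 into 1 region, and those in PCNX3 likewise.

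Along the transcript, summits of both lines lay toward the 3′ end of gene spans. The last 10% of the span held 37.5%, 39.9% and 38.2% of summits in WT and 38.1%, 39.0% and 40.3% in EGFP libraries. The lines overlapped, and the difference of −0.619 percentage points was within the replicate spread (exact permutation test, two-sided, p = 0.6, n = 3 each). Of the 95 gained regions outside METTL14 with a known strand, 28.4% lay in the last 10% and 24.2% in the first 10% of the span. Of the 57 such lost regions the shares were 42.1% and 19.3%, against 33.3% and 13.8% for regions in exactly 3 of the 6 libraries and 45.2% and 6.63% for regions in all 6. These shares cover whole gene spans, introns included, and were not tested.

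The gene-level count of summits was tested with limma on log2(summits + 1) for the 4946 genes with at least 6 summits over the 6 libraries. It called 15 genes with more summits in WT, 0.303% of those tested, and 8 with fewer, 0.162%, at adjusted p under 0.05. Of these 23 genes 22 had the same number in all 3 libraries of each line, and 21 of the 22 differed by a single summit. The spread within each line was 0 in these 22 genes. Of the genes tested, 22 had no spread in either line but different numbers in the lines, and all 22 were called. These calls followed from the absence of spread, whatever the size of the difference. At an unadjusted p under 0.05 there were 69 genes with more and 42 with fewer. The median difference over all genes tested was 0, and 842 genes had the same number in all 6 libraries.

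METTL14 was the only called gene whose summit number varied among replicates. Its log2 difference, WT minus EGFP, was 2.30 with a standard error of 0.16 (limma, adjusted p = 0.0138). With all genes without spread left out, a choice made after seeing the data, METTL14 was the only call among 4082 genes (limma, adjusted p = 4.05e-05). The METTL14 call was lost with lists of equal length (limma, adjusted p = 0.632), with summits of value 10 or more (0.743), with the numbers scaled to list length (0.105) and with the replicate block (0.350), while the log2 difference stayed between 2.21 and 2.32. Scaled to list length, limma called 0 genes in either direction.

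The called genes without spread included, with 2 summits in each WT library and 1 in each EGFP library, BAAT, which conjugates bile acids, KIF4A, KNSTRN, a kinetochore and spindle protein, PIK3CA, POLH, a DNA polymerase that copies past lesions, SLC25A28, a mitochondrial iron carrier, TMEM248, TRIM25, a ubiquitin ligase of antiviral signalling, ZNF160 and the lncRNA genes LOC101927060 and LOC105371763. HYAL2, a hyaluronidase, and MYCBP2, a ubiquitin ligase, had 3 in each WT library and 2 in each EGFP library. In the other direction ARHGEF28, LAD1, PPIL2, SAC3D1 and ZNF100 had 1 in each WT library and 2 in each EGFP library, and MARCHF8, OTUB2 and UMPS had 2 in each WT library and 3 in each EGFP library. ZNF275, a zinc finger protein, had 7 in each WT library and 5 in each EGFP library. ZNF275 was the only one of them to differ by more than 1 summit.

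**Figure D3:**
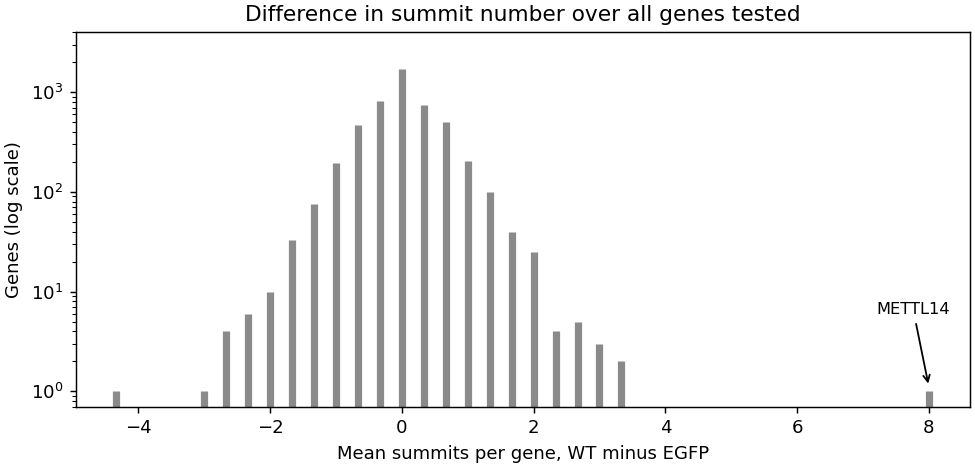
Number of genes (log scale) at each difference of mean summit number, WT minus EGFP, over the 4946 genes tested. The centre of the distribution is at 0, and METTL14 stands alone at 8.0, beyond the next highest difference of 3.33.

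Without a test, 49 genes had every WT library above every EGFP library, 0.991% of those tested, and 35 had every WT library below, 0.708%. Upward, 6 genes differed by more than 2.0 summits, and 9 were tied at 2.0, of which ZNF275 and IL17D, with the smallest p, are named and 7 are not. After METTL14 the widest upward differences of this kind were in SLC24A1, a sodium, calcium and potassium exchanger, with 5, 4 and 7 summits in WT and 2, 3 and 1 in EGFP libraries, and in ZNF514, with 4, 6 and 6 in WT and 3, 1 and 3 in EGFP libraries. Neither passed (limma, adjusted p = 0.957 for each). MKI67, the gene of the proliferation antigen Ki-67, held 12, 12 and 13 summits in WT and 9, 10 and 10 in EGFP libraries. The log2 difference of MKI67 was 0.32 with a standard error of 0.06 (limma, adjusted p = 0.494). Its R298P libraries held 7, 6 and 8 summits and its D312A libraries 10, 7 and 9, so WT was above each of the other lines. NSD2, a histone H3 methyltransferase, held 5, 5 and 4 in WT and 1, 3 and 2 in EGFP libraries, and KIF7, a kinesin of Hedgehog signalling, 3, 4 and 3 in WT and 1, 2 and 0 in EGFP libraries. IL17D, a cytokine of the interleukin-17 family, held 3, 1 and 2 in WT and 0 in each EGFP library (limma, adjusted p = 0.494), and 1 of its regions was gained.

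In the downward direction ATRN, which encodes attractin, held 5, 4 and 5 summits in WT and 6, 8 and 9 in EGFP libraries. RNF213, a large ubiquitin ligase, held 5, 5 and 6 in WT and 8, 7 and 8 in EGFP libraries, a log2 difference of −0.45 with a standard error of 0.09 (limma, adjusted p = 0.572). DUSP10, a phosphatase of stress-activated kinases, held 0, 0 and 1 in WT and 3, 3 and 2 in EGFP libraries. These groups do not overlap, and none passed the test across genes. TRIM26, a ubiquitin ligase, held 2, 3 and 3 in WT and 5 in each EGFP library. The list ended with CCDC66 (0, 0 and 1 in WT, 2, 3 and 2 in EGFP), PARD3, a cell polarity scaffold (1, 0 and 1 in WT, 2, 3 and 3 in EGFP), KIAA0319L (1, 1 and 1 in WT, 5, 2 and 2 in EGFP) and CTCF, the insulator-binding protein (3, 1 and 2 in WT, 4, 4 and 4 in EGFP). ATRN, RNF213, TRIM26, DUSP10, CCDC66 and PARD3 each held a lost region.

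**Figure D4:**
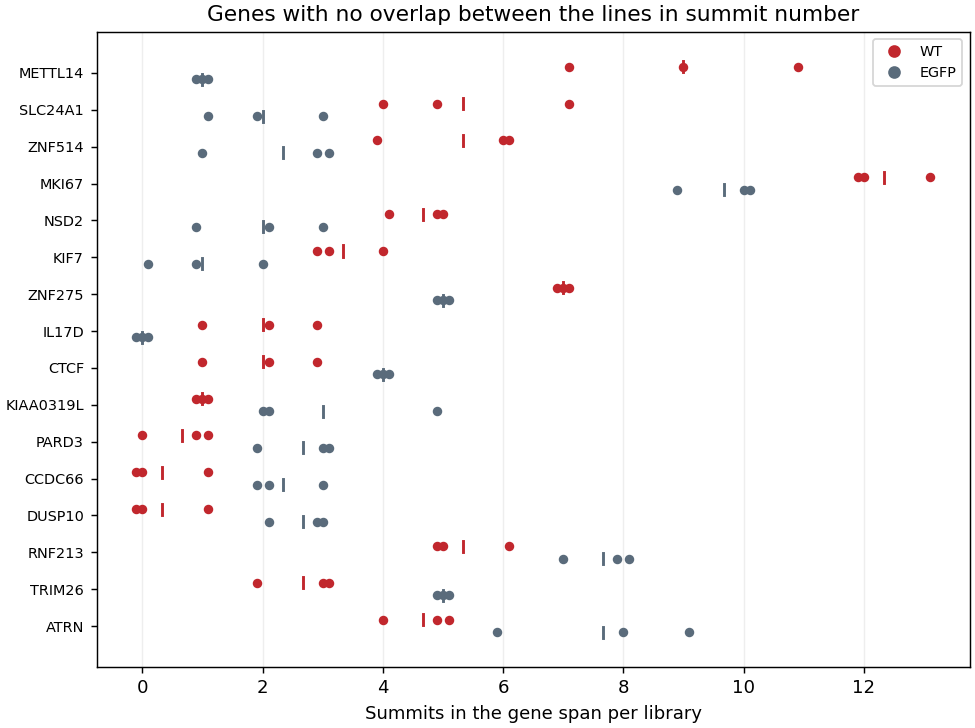
Summits per library in 8 genes with a wide upward and 8 with a wide downward difference among genes whose lines do not overlap (7 further genes tie with ZNF275 and IL17D at 2.0), WT above EGFP within each gene; points are the 3 libraries of each line, spread slightly sideways, and bars their means. METTL14 runs from 7 to 11 in WT and stays at 1 in EGFP, and the other genes differ by 2.0 to 3.33 summits on average.

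Genes were also grouped by function. Over 15 lists with 272 genes, 222 had a summit and 168 were tested. METTL14 alone was called, 0.595% of the 168, against 0.303% with more and 0.162% with fewer summits among all genes tested. Of the 23 calls behind those shares, 22 were genes without spread. METTL14, MKI67 and NSD2 had every WT library above every EGFP library, 1.79% of the 168, against 0.991% of all genes tested. JUN had every WT library below, 0.595% against 0.708%. The median difference over these 168 genes was 0, as it was over all genes. JUN, an immediate early transcription factor, held 2, 2 and 2 summits in WT and 3, 4 and 3 in EGFP libraries (limma, adjusted p = 0.572).

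In the m6A writer complex, 7 of 8 members had a summit and 1 of the 6 tested was called. The summed numbers were 27, 24 and 25 in WT and 20, 20 and 14 in EGFP libraries, METTL14 included. Without METTL14 they were 16, 15 and 18 in WT and 19, 19 and 13 in EGFP libraries, which overlap. METTL3, the catalytic subunit, held 1, 1 and 1 in WT and 1, 0 and 1 in EGFP libraries, and ZC3H13, a further subunit, 6, 3 and 4 in WT and 7, 5 and 3 in EGFP libraries. VIRMA, the scaffold of the complex, held 2, 3 and 5 in WT and 4, 3 and 2 in EGFP libraries, and RBM15, an RNA-binding adaptor, 4, 3 and 4 in WT and 4 in each EGFP library. The lines overlapped in each of these 4 genes. Of 15 erasers and readers 10 were tested and 0 called: the reader YTHDF2 held 3, 3 and 4 in WT and 3 in each EGFP library, the nuclear reader YTHDC1 3, 3 and 5 in WT and 2, 2 and 4 in EGFP libraries, and the eraser FTO 1 in every library.

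Among liver genes the libraries differed more within a line than between lines. The 20 secreted liver proteins summed to 129, 39 and 34 summits in WT and 70, 11 and 116 in EGFP libraries. APOB, the main protein of very-low-density lipoprotein, held 39, 9 and 4 in WT and 10, 0 and 32 in EGFP libraries, and ALB, which encodes albumin, 10, 5 and 3 in WT and 7, 0 and 10 in EGFP libraries. WT replicate 1 and EGFP replicate 3 were high in both genes and EGFP replicate 2 had 0 in both. The mitochondrial genome held 33, 3 and 3 summits in WT and 8, 0 and 16 in EGFP lists, with the same 2 libraries highest. Of 15 secreted proteins tested 0 were called.

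Hepatocyte transcription factors were steadier. HNF4A held 11, 9 and 9 summits in WT and 9, 9 and 7 in EGFP libraries, and of 17 members tested 0 were called. NR1I2, the pregnane X receptor of drug metabolism, held a gained region (chr3:119811613-119811652) with values of 11.99, 5.70 and 20.997 in the WT lists. It held 1, 3 and 3 summits in WT and 1, 1 and 1 in EGFP libraries, so the lines touched at 1. The NR1I2 region was found in 0 R298P and 0 D312A libraries, and is also 1 of the 26 such among 110.

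In the cell cycle list, CENPF, a kinetochore protein, held a gained region (chr1:214642661-214642727) with values of 10.1, 10.6 and 8.66 in the WT lists. Its mean rank was at the 76.4th percentile. The CENPF region was found in 0 R298P and 0 D312A libraries, as were 26 of the 110 gained outside METTL14. CENPF held 5, 6 and 7 summits in WT and 1, 5 and 4 in EGFP libraries, meeting at 5 (limma, adjusted p = 0.957). Among chromatin regulators NSD2 held a gained region (chr4:1978796-1978818), which had an EGFP summit within 200 nt, and KMT2D, a histone H3 methyltransferase, a lost one (chr12:49049784-49049789). KMT2D as a whole held 13, 12 and 16 summits in WT and 13, 13 and 12 in EGFP libraries, and the lines overlapped. The lists of lipid and cholesterol genes, growth factor signalling, SOCS and interferon response, p53 and apoptosis, Wnt and Hippo signalling, mRNA decay, other RNA methyltransferases and nuclear long noncoding RNAs held 0 called genes and 0 called regions.

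The lines with substituted METTL14 gave libraries that took no part in calling these regions. Of the 110 regions gained outside METTL14, the R298P libraries held 40, 36 and 39, and the D312A libraries 37, 17 and 33. Of the 72 lost regions, the R298P libraries held 17, 18 and 31, and the D312A libraries 28, 16 and 33. In percent, the gained ranged from 15.5% to 36.4% over these libraries, the lost from 22.2% to 45.8%, and all regions in exactly 3 of the 6 WT and EGFP libraries from 21.3% to 40.5%. The ranges overlapped, and no test of their difference was made. Within a library, the gained share was below that of regions in exactly 3 of 6 except in R298P replicate 2 (32.7% against 31.7%). The lost share was above it in R298P replicate 3 and D312A replicates 2 and 3, and below it in the other libraries. Each of the 6 gained regions in METTL14 was held by at least 4 of these 6 libraries. Of the 110 gained outside METTL14, 26 were held by 0 of the 6 libraries and 4 by all 6, and of the 72 lost, 11 by 0 and 1 by all 6. D312A replicate 2, with the lowest shares, also had the shortest list, of 8669 summits.

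**Figure D5:**
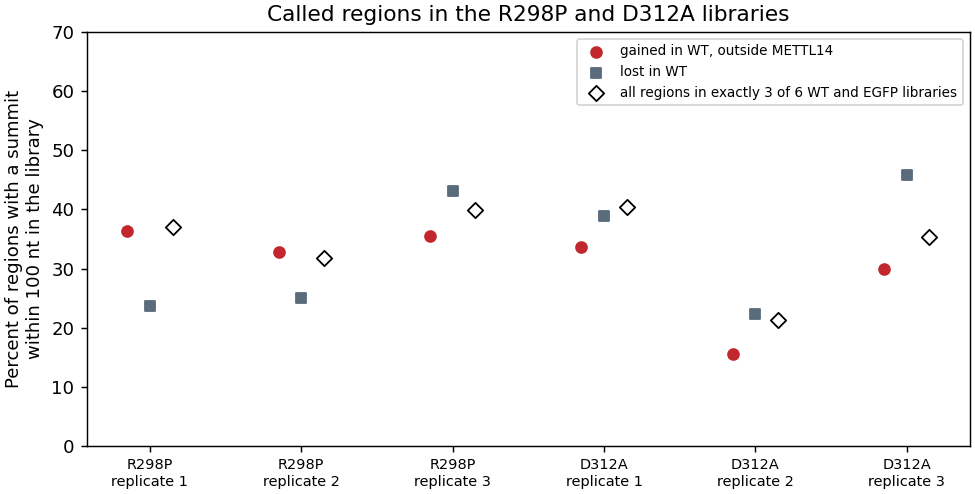
Percent of called regions with a summit within 100 nt in each R298P and D312A library, for 110 regions gained in WT outside METTL14, 72 lost regions and all regions in exactly 3 of the 6 WT and EGFP libraries. Gained regions run from 15.5% to 36.4% and lost regions from 22.2% to 45.8%. Gained regions lie below the regions in exactly 3 of 6 in every library but R298P replicate 2, and lost regions lie on either side.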

How the data were processed

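Per the labels' protocols, poly(A) RNA was fragmented, precipitated with an anti-m6A antibody and sequenced beside input. Per the submitters' processing notes, the tools included MACS2 2.1.2, STAR 2.7.9a, Picard and Trim Galore 0.4.4 on hg38, with roles not given. The authors deposited 1 summit list per immunoprecipitated library, so peaks were called per library, and each summit carries a value read from its range as a −log10 p-value or q-value. Which of these it is, the input library behind it and its threshold: not given in the sources used here. The lowest value of each list was just above 5. The value was used for ranks and filters inside each list. The filter for values of at least 10 set the same cutoff in every list, and whether the scale is the same in all lists is not known. Read numbers behind the lists are unknown, so no counting interval could be set. The deposited table of input libraries was not used; its 18 columns per library could not be matched to samples.

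Positions are 1-based on hg38. Each region or summit took the name of the single protein-coding gene (failing that, lncRNA gene) that spans it in RefSeq GRCh38.p14; exons, introns and strand of the summit were not told apart, so overlapping antisense genes cannot be separated. Libraries were compared with exact permutation tests over the 20 assignments and genes with limma 3.58.1 (R 4.3.3) on log2(summits + 1) with Benjamini-Hochberg adjustment; Python 3.11.15, NumPy 2.4.6, pandas 2.3.3 and matplotlib 3.10.9 did the rest. Region calling and the limma fit were tested on simulated data. Samples were grouped by title. No 2 replicates of a line shared more than 5.90% of their summits at exactly the same base. This share leaves out summits that lie near each other and merge into 1 region.

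The members, gene lists and tests were chosen with earlier results of these data known. Named were METTL14, list members with a called region or a limma call, hosts of the 10 best ranked gained and lost regions in 1 gene with no summit of the other line within 200 nt, the 8 widest differences in each direction among genes whose lines do not overlap (ties by smaller p, then by name), genes with 2 or more called regions of a kind, and genes called by limma (all 23 are given; the rule set at most 20). The called regions at gene starts, MED16, JUN and the list members given as examples fall outside this rule and were chosen after their values were seen.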

Additional observations from a re-analysis of the deposited data

How the results depend on the processing

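The limma counts and the counts of regions rest on 3 libraries a line and move with every library. Against 116 gained and 72 lost regions, leaving out 1 library in turn gave 234 to 381 gained and 142 to 378 lost, since 2 libraries against 3 meet the rule more easily, and replicates 2 and 3 alone gave 747 and 505. The 5000 best summits gave 41 and 42, and asking for no summit of the other line within 500 nt left 68 and 35. For the other alternatives, such as merging within 50 or 200 nt, the counts stayed within 1.5 times. The difference in summits per library turned to −98.7 without WT replicate 1, −257 without WT replicate 3 and −439 without EGFP replicate 3, and ran from −439 to 990 over all such fits. Against 15 more and 8 fewer genes by limma, leaving out 1 library gave 30 to 49 more and 16 to 47 fewer, replicates 2 and 3 alone 125 and 104, no filter 40 and 19, scaling to list length 0 and 0, and leaving out genes without spread, added after seeing the data, 1 and 0. Genes above and below without overlap, 49 and 35, numbered 86 to 155 and 60 to 164 without 1 library, 172 and 89 scaled to list length and 79 and 53 with no filter. The cause of the other shifts was not tested. Whether the replicate numbers pair the samples cannot be told from these correlations, which were all weak. Deviations of same-numbered WT and EGFP libraries correlated at 0.187, 0.103 and −0.091 across 4946 genes. WT replicates 1 and 2 went best with the EGFP library of the same number, and WT replicate 3 with EGFP replicate 2 (0.120). With the replicate block limma called 13 genes with more and 6 with fewer, and the difference of METTL14 stayed at 8.0 summits (exact sign-flip test over 3 pairs, p = 0.25, the smallest possible). The METTL14 summit difference and the share in the last 10% of the span kept their direction in every alternative run.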
